A study of Mus musculus with 6 samples.

Results

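A set of 10 heat shock genes was followed in L929 cells, a mouse fibroblast line, after co-culture with tumour cells. They are the small heat shock genes Hspb1, Hspb8 and Cryab, the HSP70 genes Hspa1a, Hspa1b and Hspa8, the HSP90 genes Hsp90aa1 and Hsp90ab1, the HSP110 gene Hsph1 and the heat shock factor gene Hsf1. They were chosen by symbol from a table of 21929 genes, and each of the 10 symbols stood on 1 row of it. The 3 Biotin-negative libraries came from L929 cells labelled as not having interacted with the tumour, and the 3 Biotin-positive libraries from L929 cells labelled as MFCSTCL-interacted. Both groups were kept in co-culture, so neither holds fibroblasts grown alone. The labels name no genetic change, do not spell out MFCSTCL or the biotin labelling, and do not say that the 3 libraries of a group were separate cultures. The p-values therefore rest on library-to-library spread alone, and that spread may be technical. Values are FPKM, fragments scaled to gene length and library size, so levels can be compared between genes. Such comparisons are less certain for genes that share near-identical sequence with others. A gene is said to rise or fall when its level was higher or lower in Biotin-positive than in Biotin-negative cells; no library represents a time before contact.

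Heat shock proteins are chaperones. Small heat shock proteins hold unfolded proteins in a soluble state without using ATP. HSP70 binds short exposed stretches of client proteins in cycles of ATP use that J-domain proteins start and exchange factors such as HSP110 reset, and HSP90 takes over clients such as kinases and steroid receptors at a later stage. HSF1 is the transcription factor that switches on the stress-inducible members by binding repeated GAA units in their promoters. Some members, such as Hspa8 and Hsp90ab1, are made in unstressed cells too, while Hspa1a and Hspa1b are the classic heat-inducible HSP70 genes.

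Among the 10 genes, the abundant chaperone genes and all 3 small heat shock genes were higher in Biotin-positive cells. The inducible HSP70 genes and Hsf1 were lower. Cryab went from 2.61 ± 0.387 to 22.3 ± 1.06 FPKM (mean ± SD, n = 3 in each group here and below, Biotin-negative first). Its change was the largest of the tested genes of the set on the log2(FPKM + 1) scale, but by ratio of means Hspb1, near 0 in Biotin-negative cells, stood above it (32.6 against 8.57), as it did with a pseudocount of 0.1 FPKM (log2 differences of 3.74 and 3.06). Hspa8 and Hsp90aa1 rose 2.35-fold and 2.37-fold, from means of 257 and 122 FPKM. Hspa1b fell to 0.416 of its Biotin-negative mean. Genes that reached 1 FPKM in 3 or more libraries were tested on log2(FPKM + 1) with limma, a linear model fitted over all 11029 such genes, at a Benjamini-Hochberg adjusted p of 0.05. Of the 10 genes 9 passed this filter and Hspa1a did not. Of the 9, 7 were called higher, where 37.8% of all tested genes were, and 2 were called lower, where 36.1% were. Hspb1 passed the filter only through the Biotin-positive libraries, so nothing but a rise could be called for it. The groups did not overlap for any of the 10 genes, and 76.9% of all tested genes showed no overlap either. Since most tested genes differed between these groups (73.9% were called), the sizes of the changes are given beside each call. A log2 difference of at least 1 was reached by Hspb1, Cryab, Hspa8 and Hsp90aa1, all called higher, where 5.29% of tested genes were. Neither gene called lower reached a fall of 1 on this scale, where 3.41% of tested genes did. Hspa1b, a low gene, stood at -0.80 on it and at -1.20 with a pseudocount of 0.1 FPKM.

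**Figure D1:**
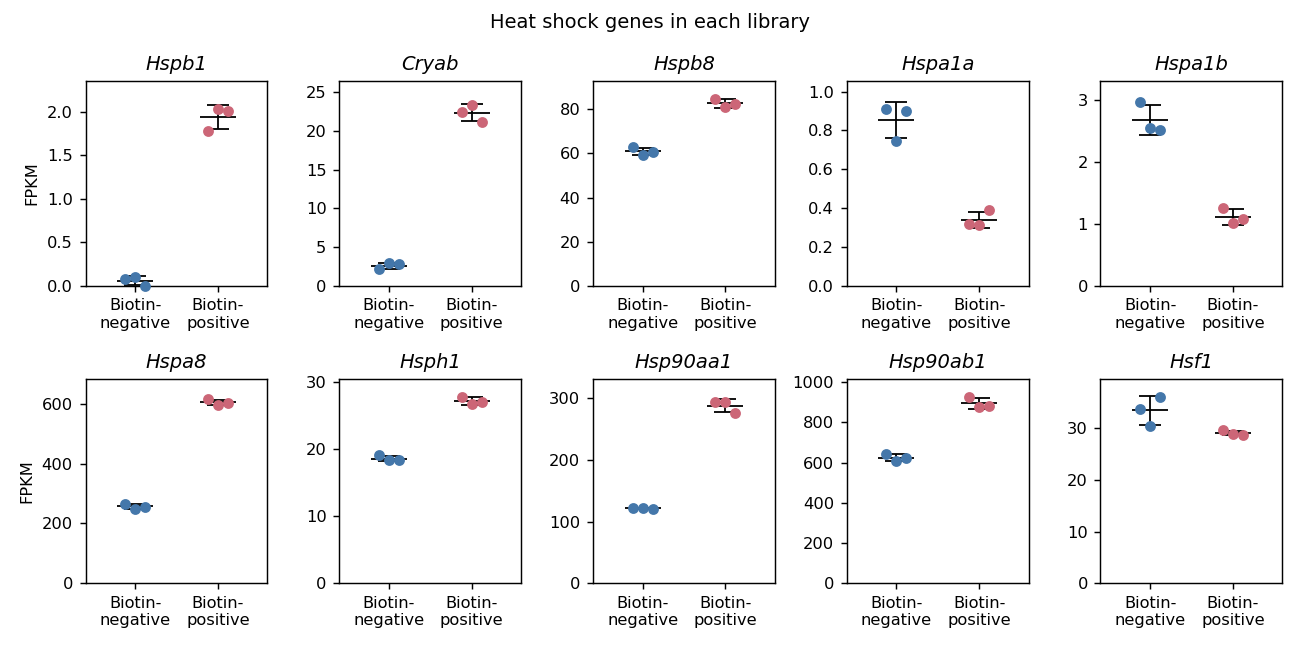
FPKM of the 10 heat shock genes in each of the 6 libraries, with the group mean (horizontal line) and SD (error bar, n = 3); each panel has its own linear axis from 0. The groups are apart in every panel, with Hspa1a, Hspa1b and Hsf1 lower and the other genes higher in the Biotin-positive libraries.

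Cryab encodes alpha-B-crystallin, a small heat shock protein that is abundant in the lens and in muscle. Its level was 2.16, 2.88 and 2.77 FPKM in the Biotin-negative libraries 1 to 3 against 22.4, 23.4 and 21.2 FPKM in Biotin-positive libraries. Every Biotin-positive library was thus far above the highest Biotin-negative one, a ratio of means of 8.57. The log2 difference was 2.70 (SE 0.0823, limma adjusted p = 2.6e-08), which placed it at rank 36 of the 11029 tested genes ordered from the largest rise. Cryab lies on chromosome 9 (50751325 to 50756636, plus strand, ENSMUSG00000032060) and overlaps the oppositely transcribed small heat shock gene Hspb2 over 1030 bases. Hspb2 itself stayed between 0 and 0.367 FPKM in all 6 libraries. A share of 22.6% of the Cryab transcript matches Hspb2 nearly identically, and the sources do not say whether strand was used in counting, so reads in the overlap cannot be assigned.

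Hspb1 encodes HSP27 (HSP25 in the mouse), a widely expressed small heat shock protein that also binds actin. Biotin-negative libraries had 0.0739, 0.104 and 0 FPKM of it, and Biotin-positive libraries 1.78, 2.03 and 2.01 FPKM. It was therefore near or at 0 in the first group and low in the second, at the 1.54th percentile of the tested genes by mean level. The log2 difference was 1.47 (SE 0.07, limma adjusted p = 2.74e-07). Since the gene was tested only because of its Biotin-positive values, this p is no separate support for the rise. With a pseudocount of 0.1 FPKM in place of 1 it became 3.74, so the size of this change depends on how values near 0 are treated. Other annotated genes, the predicted coding gene Gm9817 and the pseudogene Hsp25-ps1, match 51.8% of the Hspb1 transcript nearly identically. The level of Hspb1 is uncertain for that reason, since reads from the shared part can be dropped or split. Hspb1 lies on chromosome 5 (135887919 to 135889563, plus strand, ENSMUSG00000004951).

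Hspb8, also called HSP22, acts with the co-chaperone BAG3 in the selective autophagy of damaged proteins. It stood at 62.8, 59.3 and 60.6 FPKM against 84.7, 80.9 and 82.6 FPKM, the highest of the 3 small heat shock genes in both groups. The rise was 1.36-fold (log2 difference 0.44, SE 0.0337, limma adjusted p = 5.05e-06). Hspb8 lies on chromosome 5 (116408491 to 116422864, minus strand, ENSMUSG00000041548). The 3 small heat shock genes together summed to 63.6 ± 1.40 and 107 ± 1.65 FPKM. Cryab made up 4.11% ± 0.691 of that sum in Biotin-negative and 20.9% ± 1.00 in Biotin-positive cells. Bag3, the partner of HSPB8, did not pass the test (21.0 and 19.4 FPKM, limma adjusted p = 0.0575).

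The promoter of Hspb1 is shown because this gene went from near 0 to a measurable level and heat shock factor sites are made of GAA units. The stretch is the 250 bases before the RefSeq start on GRCm38.p6, chr5:135887669-135887918 on the plus strand. Capitals mark matches to GAANNTTC or TTCNNGAA, a head-to-head or tail-to-tail pair of GAA units. Each of these motifs equals its own reverse complement, so both strands were searched, and the 2 can overlap in a run of 3 units.
Hspb1: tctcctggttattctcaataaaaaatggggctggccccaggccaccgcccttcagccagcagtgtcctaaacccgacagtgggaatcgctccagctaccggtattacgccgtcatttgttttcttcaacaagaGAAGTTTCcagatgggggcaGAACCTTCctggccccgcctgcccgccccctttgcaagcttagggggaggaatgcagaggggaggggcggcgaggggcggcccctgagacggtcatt
The window held GAANNTTC at 2 places, the nearer one starting 97 bases before the start. GAANNTTC was found in 6.69% and TTCNNGAA in 7.17% of the 32851 RefSeq promoter windows of this length. A full run of 3 units, GAANNTTCNNGAA or TTCNNGAANNTTC on the other strand, was found in 0.466% of the windows and not in that of Hspb1. Only exact matches were counted here and below, so a run with a mismatched base would be missed. The window of Hspb8 held neither of the 2-unit motifs. RefSeq windows were matched for 5 of the 10 genes, Hspb1, Hspb8, Hspa1a, Hspa1b and Hsph1.

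Hspa8 encodes HSC70, the constitutive HSP70 of the cytosol, which also uncoats clathrin vesicles and carries proteins to the lysosome. Its level was 266, 249 and 255 FPKM in the Biotin-negative libraries against 614, 596 and 602 FPKM in Biotin-positive libraries. Every Biotin-positive library was far above the Biotin-negative ones, with SDs of 8.61 and 9.56 FPKM. The log2 difference was 1.23 (SE 0.0323, 95% interval 1.16 to 1.31, limma adjusted p = 1.25e-08). It exceeded 94.8% of all tested log2 differences in size and was close in size to the change of Hsp90aa1. Hspa8 lies on chromosome 9 (40800984 to 40810087, plus strand, ENSMUSG00000015656), and 4 other annotated genes, 3 of them processed pseudogenes, match 84.5% of its transcript nearly identically. Its level is uncertain to that extent.

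Hspa1a and Hspa1b encode the heat-inducible HSP70 and lie as neighbours on the minus strand of chromosome 17 (Hspa1a at 34969190 to 34972156, ENSMUSG00000091971; Hspa1b at 34956436 to 34959238, ENSMUSG00000090877). Hspa1b was at 2.96, 2.55 and 2.52 FPKM in Biotin-negative and at 1.25, 1.01 and 1.07 FPKM in Biotin-positive cells. Each Biotin-positive library was below each Biotin-negative one (log2 difference -0.80, SE 0.075, limma adjusted p = 1.71e-05). Hspa1a was lower still, at 0.908, 0.747 and 0.902 against 0.317, 0.311 and 0.388 FPKM, which is under the 1 FPKM needed for testing. Its log2 difference was -0.47, untested here, and in a fit without a filter on low values, over 17058 genes, it passed (limma adjusted p = 0.000252). The ratio of means was 0.397 for Hspa1a and 0.416 for Hspa1b. Over 2200 aligned bases the transcripts are 99.1% identical, so reads between these 2 genes can be split or dropped in counting. Their sum depends less on the split, since the transcripts are of similar length (2967 and 2803 bases). It still lacks any reads that were dropped. This sum was 3.53 ± 0.303 and 1.45 ± 0.122 FPKM, and taken as 1 gene it gave a log2 difference of -0.88 (limma adjusted p = 7e-06). The gene Gm20481, annotated on the opposite strand over 2225 bases of Hspa1a, was listed at 0 in every library.

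The promoters of the inducible pair are shown because both genes fell to nearly the same fraction. They are the 250 bases before the RefSeq starts on GRCm38.p6, chr17:34972157-34972406 for Hspa1a and chr17:34959239-34959488 for Hspa1b, read on the minus strand, with capitals as above.
Hspa1a: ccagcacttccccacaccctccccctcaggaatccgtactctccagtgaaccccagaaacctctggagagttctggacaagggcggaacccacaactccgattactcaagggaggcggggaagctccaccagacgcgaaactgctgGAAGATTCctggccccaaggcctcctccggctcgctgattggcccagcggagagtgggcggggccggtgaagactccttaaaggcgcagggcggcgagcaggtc
Hspa1b: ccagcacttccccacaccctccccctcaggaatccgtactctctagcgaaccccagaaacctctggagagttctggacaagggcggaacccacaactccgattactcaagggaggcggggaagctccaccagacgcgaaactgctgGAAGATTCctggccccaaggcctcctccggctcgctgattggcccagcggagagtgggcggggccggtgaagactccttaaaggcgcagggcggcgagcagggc
The windows were the same at 247 of 250 positions with no gaps. Counted from 1 at the 5′ end, the changes from Hspa1a to Hspa1b were C44T, T47C and T249G. Both held GAANNTTC at 1 place, starting 104 bases before the start, and neither held an exact run of 3 units in this window. Runs with a mismatched base were not searched for, so their absence is not shown. The near-identity thus reaches from the transcript into the promoter. The FPKM ratio of Hspa1b to Hspa1a was 3.16 ± 0.324 in Biotin-negative and 3.32 ± 0.595 in Biotin-positive libraries, and its values overlapped between the groups.

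Hsph1 encodes HSP110 (HSP105), a large relative of HSP70 that serves as its nucleotide exchange factor and helps to take aggregates apart. It rose from 19.1, 18.4 and 18.4 FPKM to 27.8, 26.7 and 27.1 FPKM (ratio of means 1.46, log2 difference 0.52, SE 0.0362, limma adjusted p = 2.51e-06). The spread within each group was small beside this step, with SDs of 0.388 and 0.508 FPKM. Hsph1 lies on chromosome 5 (149614287 to 149636376, minus strand, ENSMUSG00000029657), and no other annotated transcript matched it nearly identically. Its promoter is shown because the rising HSP110 gene holds the other of the 2 motifs. This is 1 of 2 RefSeq windows for the gene, both of which hold that motif, the 250 bases at chr5:149636337-149636586 of GRCm38.p6 on the minus strand.
Hsph1: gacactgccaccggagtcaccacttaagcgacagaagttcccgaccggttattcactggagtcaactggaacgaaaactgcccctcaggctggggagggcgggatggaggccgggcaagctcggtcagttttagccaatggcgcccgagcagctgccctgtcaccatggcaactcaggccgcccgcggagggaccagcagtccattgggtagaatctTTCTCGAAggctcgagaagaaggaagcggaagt
TTCNNGAA began 33 bases before this start. The annotated 5′ end of Hsph1 in GENCODE lies further upstream, so the motif lies before the RefSeq start but inside the gene as its coordinates are given above. A match is a match of letters only, and none of these data measure binding.

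Hsp90ab1 and Hsp90aa1 encode the cytosolic HSP90 beta and alpha, of which beta is the more constitutive and alpha the more inducible form. Hsp90ab1 had the highest level of the 10 genes in both groups, at 642, 608 and 624 FPKM in Biotin-negative and 925, 876 and 881 FPKM in Biotin-positive cells. That is a rise of 1.43-fold (log2 difference 0.52, SE 0.0342, limma adjusted p = 1.94e-06). Hsp90aa1 was at 122, 122 and 121 FPKM against 294, 294 and 276 FPKM. Its Biotin-negative libraries lay within an SD of 0.199 FPKM, and every Biotin-positive library was far above them (log2 difference 1.24, SE 0.0326, 95% interval 1.16 to 1.31, limma adjusted p = 1.27e-08). Hsp90ab1 lies on chromosome 17 (45567775 to 45573271, minus strand, ENSMUSG00000023944) and has no near-identical match. For Hsp90aa1, on chromosome 12 (110690605 to 110702728, minus strand, ENSMUSG00000021270), the pseudogenes Gm12346 and Gm5844 match 68.7% of the transcript nearly identically, so its level is less certain.

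Hsf1, the gene of the master heat shock factor, was at 33.7, 30.5 and 36.1 FPKM in Biotin-negative and at 29.6, 28.9 and 28.7 FPKM in Biotin-positive cells. The groups were close, with less than 1 FPKM between the lowest Biotin-negative and the highest Biotin-positive library. The log2 difference was -0.19 (SE 0.0569, 95% interval -0.32 to -0.06, limma adjusted p = 0.0135). Only 33.2% of the tested genes had a smaller one in size, so the fall is minor for this comparison. HSF1 is controlled mainly at the protein level, by release from chaperones, trimer formation and phosphorylation, which RNA values do not show. Hsf1 lies on chromosome 15 (76477422 to 76501913, plus strand, ENSMUSG00000022556).

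**Figure D2:**
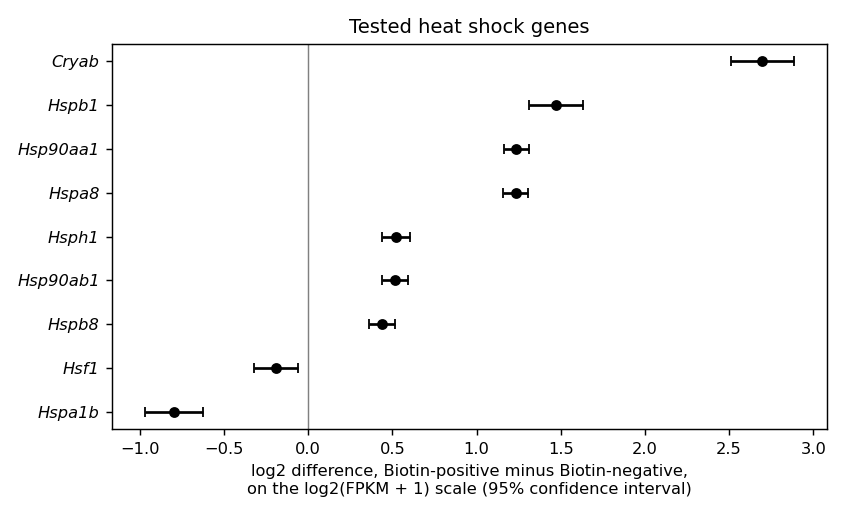
Log2 difference of the 9 tested heat shock genes (Biotin-positive minus Biotin-negative, log2(FPKM + 1) scale) with 95% confidence intervals from limma. Cryab stands at 2.70, Hspb1, Hsp90aa1 and Hspa8 between 1.23 and 1.47, and Hspa1b and Hsf1 below 0.

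Because the genes moved by unequal amounts, the make-up of the chaperone transcripts differed between the groups. The 10 genes summed to 1151, 1093 and 1122 FPKM in Biotin-negative and 2001, 1929 and 1922 FPKM in Biotin-positive libraries. That was 0.331% ± 0.00726 and 0.55% ± 0.0101 of all FPKM in the table. Hspa8, Hsp90aa1 and Hsp90ab1 held 89.4% ± 0.176 and 91.6% ± 0.0538 of the sum, so it is nearly a sum of these 3 genes. Within it the share of Hsp90ab1 was 55.7% ± 0.0845 against 45.8% ± 0.397, and that of Hspa8 22.9% ± 0.200 against 31.0% ± 0.316. These shares and the ratios below describe the libraries and were not tested.

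Among the HSP90 forms, the FPKM ratio of Hsp90aa1 to Hsp90ab1 was 0.190, 0.200 and 0.195 in Biotin-negative and 0.318, 0.336 and 0.313 in Biotin-positive libraries. By these values the more inducible form was the minor one in both groups and took a larger part in the second. How minor it was is uncertain, since other annotated genes match 68.7% of the Hsp90aa1 transcript nearly identically and none of Hsp90ab1. The HSP70 percentages that follow have a like limit. Among the HSP70 forms the inducible genes were also the minor ones, but their part changed in the opposite direction. Hspa1a and Hspa1b together came to 1.46, 1.32 and 1.34% of the Hspa8 level in Biotin-negative libraries and to 0.256, 0.223 and 0.242% in Biotin-positive ones, so the inducible HSP70 genes took a smaller part. Hsph1 amounted to 7.26% ± 0.116 of Hspa8 in the first group and 4.51% ± 0.0131 in the second, since the exchange factor gene rose by less than Hspa8.

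**Figure D3:**
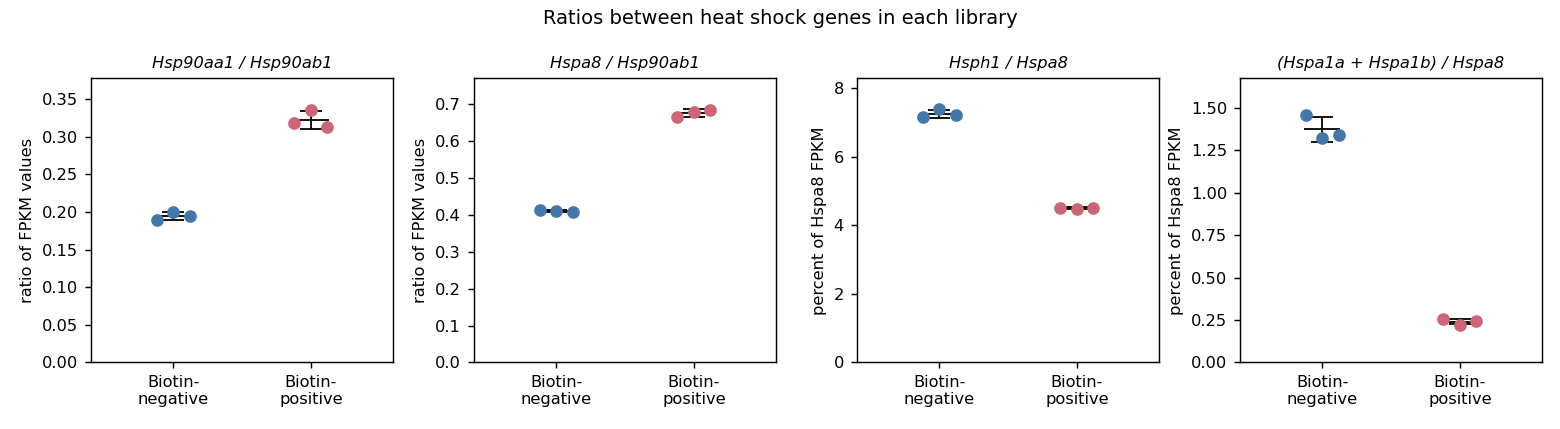
FPKM ratios between heat shock genes in each library, with group mean (line) and SD (bar, n = 3), on linear axes from 0. Hsp90aa1 and Hspa8 stand higher relative to Hsp90ab1 in the Biotin-positive libraries, while Hsph1 and the sum of Hspa1a and Hspa1b stand lower relative to Hspa8.

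By level the 10 genes kept much of their order. In Biotin-negative cells it ran from Hsp90ab1 (625 ± 17.1 FPKM) over Hspa8 (257 ± 8.61), Hsp90aa1 (122 ± 0.199), Hspb8 (60.9 ± 1.78), Hsf1 (33.4 ± 2.79) and Hsph1 (18.6 ± 0.388) down to Hspa1b (2.68 ± 0.249), Cryab (2.61 ± 0.387), Hspa1a (0.852 ± 0.0911) and Hspb1 (0.0595 ± 0.0537). Hspa1b and Cryab were the neighbours whose libraries overlapped. In Biotin-positive cells the first 6 places were the same, and below them Cryab (22.3 ± 1.06) and Hspb1 (1.94 ± 0.140) stood above Hspa1b (1.11 ± 0.124) and Hspa1a (0.339 ± 0.0428). No neighbours overlapped in that group.

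The partners of these chaperones were taken from lists of related genes. Of 83 such genes 74 were tested, of which 36 rose, 16 fell and 22 did not pass (over all tested genes 37.8% were called higher and 36.1% lower), with a median log2 difference of 0.16 beside 0.01 for all tested genes. HSP90 co-chaperones load clients onto HSP90 and time its ATP cycle. Of 16 tested, 10 rose, 2 fell and 4 did not pass, with a median of 0.28. The immunophilin gene Fkbp4 rose from 62.1 ± 1.15 to 111 ± 2.46 FPKM, the ATPase activator gene Ahsa1 from 53.0 ± 0.954 to 88.8 ± 3.29 FPKM and Stip1, which bridges HSP70 and HSP90, from 79.6 ± 1.59 to 128 ± 2.84 FPKM. Those that fell were Cdc37l1 (16.4 to 12.3 FPKM) and Chordc1 (16.2 to 14.8 FPKM, limma adjusted p = 0.0477). The call of Chordc1 was lost under 8 of 16 alternatives, among them the replicate block and the omission of any Biotin-positive library or of Biotin-negative replicate 1 or 2. Among those that rose, Cdc37, which brings kinases to HSP90, was at 26.1 and 28.7 FPKM (limma adjusted p = 0.0234), and its call was lost under 6 of 16 alternatives: quantile normalization, an equal sum per library, and the omission of Biotin-negative replicate 1 or 3 or of Biotin-positive replicate 1 or 2. Ahsa2, Fkbp5, Sugt1 and Ttc4 did not pass.

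Among 14 tested J-domain protein genes, which stimulate the HSP70 ATPase, 4 rose, 4 fell and 6 did not pass (median 0.02). Neither share exceeded that among all tested genes, 37.8% called higher and 36.1% lower. Dnaja1 rose from 40.2 ± 1.23 to 53.9 ± 0.859 FPKM, while Dnajb5 fell from 4.13 ± 0.259 to 2.12 ± 0.329 FPKM, Dnajb12 from 14.3 ± 0.921 to 9.59 ± 0.0920 FPKM and the mitochondrial Dnaja3 from 35.7 ± 0.148 to 26.0 ± 0.452 FPKM. Dnajb1, the heat-inducible partner of HSP70, was at 20.4 ± 0.841 and 21.8 ± 1.13 FPKM and did not pass (limma adjusted p = 0.135). Of 9 exchange factor and cofactor genes 3 rose, 3 fell and 3 did not pass, again no larger a share in either direction than among all tested genes. Hspbp1 rose from 14.4 ± 0.332 to 28.0 ± 1.80 FPKM, Bag1 from 69.3 ± 1.30 to 104 ± 3.05 FPKM and St13, which encodes the HSP70-interacting protein HIP, from 48.0 ± 1.5 to 65.3 ± 1.07 FPKM. Stub1, the gene of the ubiquitin ligase CHIP, fell from 79.0 to 67.8 FPKM, Bag2 from 21.1 to 17.7 FPKM and Bag5 from 15.9 to 13.7 FPKM.

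Relatives in other compartments went apart from Hspa8 and the cytosolic HSP90 genes. Of 10 tested HSP70 and HSP110 relatives 4 rose, 4 fell and 2 did not pass. As counts these are near the shares over all tested genes, 37.8% called higher and 36.1% lower. The genes of the endoplasmic reticulum in this list fell: Hspa5, which encodes BiP, from 2924 ± 120 to 1764 ± 120 FPKM, Hyou1 from 282 ± 13.4 to 136 ± 7.48 FPKM and Hspa13 from 16.8 to 14.6 FPKM. The call of Hspa13 was lost without Biotin-negative replicate 2 or 3 and without Biotin-positive replicate 3. Hsp90b1, the HSP90 of the same compartment, fell from 1212 ± 20.8 to 904 ± 21.9 FPKM. The mitochondrial relatives Hspa9 (299 and 310 FPKM, limma adjusted p = 0.147) and Trap1 (29.2 and 27.9 FPKM, limma adjusted p = 0.231) did not pass. Hspa14, a ribosome-associated HSP70, rose from 24.0 ± 0.789 to 44.5 ± 1.21 FPKM, and the HSP110 relatives Hspa4l from 3.27 ± 0.172 to 6.33 ± 0.0787 FPKM and Hspa4 from 46.5 to 55.0 FPKM. The distant relatives Hspa12a and Hspa12b, near 1 FPKM, rose (0.684 to 1.29 FPKM, past the filter only through the Biotin-positive libraries) and fell (2.01 to 1.06 FPKM), and Hspa2 did not pass.

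Chaperonins, the ring-shaped chaperones that fold actin, tubulin and mitochondrial proteins, had the highest median of the lists drawn for chaperones, 0.64. Of 10 genes 9 rose and Cct5 did not pass (266 and 270 FPKM, limma adjusted p = 0.591, called lower after quantile normalization). Among all tested genes the shares called were 37.8% higher and 36.1% lower. Cct6a rose from 98.6 ± 1.02 to 165 ± 4.77 FPKM, Cct2 from 160 ± 3.64 to 262 ± 3.84 FPKM, and the mitochondrial Hspd1 and Hspe1, which encode HSP60 and HSP10, from 236 ± 5.81 to 387 ± 7.39 FPKM and from 147 ± 6.80 to 236 ± 4.11 FPKM. Of 6 prefoldin genes, whose product hands unfolded actin and tubulin to the chaperonin, 4 rose, Pfdn5 fell (125 to 117 FPKM) and Vbp1 did not pass. The call of Pfdn5 was lost under 7 of 16 alternatives: the replicate block, no filter on low values, limma without a trend, and the omission of replicate 1 or 3 of either group. Pfdn1 rose from 24.8 ± 0.944 to 39.7 ± 2.25 FPKM. Among the other small heat shock genes only Hspb7 and Hspb6 were tested. Hspb7 rose from 2.13 ± 0.162 to 4.10 ± 0.171 FPKM, and Hspb6 (17.5 and 18.0 FPKM) did not pass. Hspb2, Hspb3, Hspb9 and Cryaa were below 1 FPKM on average in both groups.

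**Figure D4:**
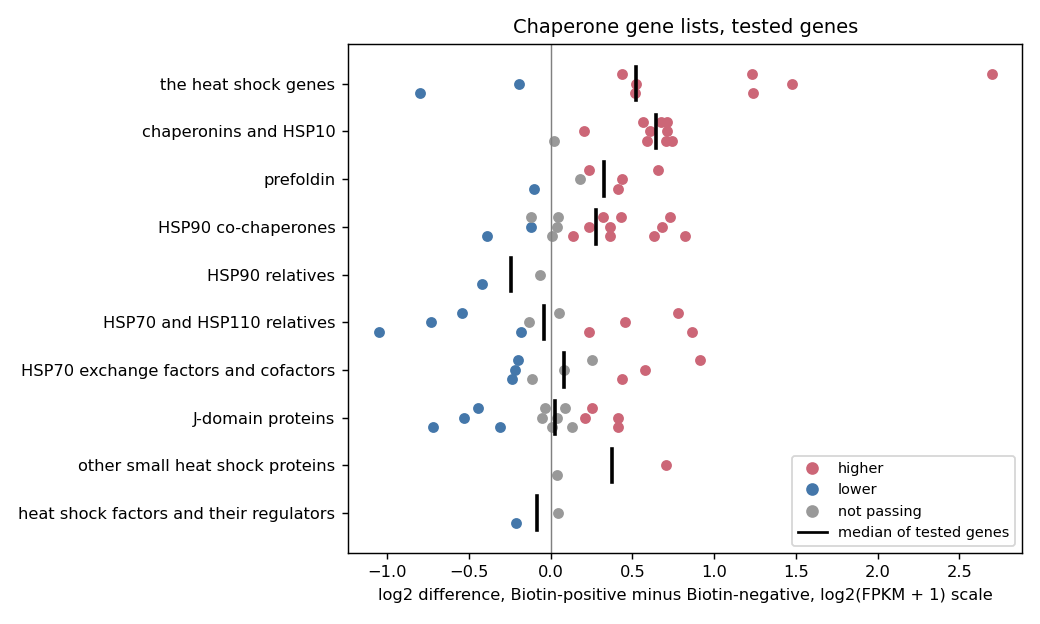
Log2 difference (Biotin-positive minus Biotin-negative, log2(FPKM + 1) scale) of each tested gene in 9 chaperone lists and of the 9 tested heat shock genes, with the median of each list as a black line and points coloured by the limma call at an adjusted p of 0.05. The chaperonin points lie to the right of 0, while the HSP70 and J-domain lists spread to both sides.

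Textbook HSF1 targets other than the 10 genes were higher in part. Of 15, all tested, 10 rose, 1 fell (Chordc1) and 4 did not pass (over all tested genes 37.8% were called higher and 36.1% lower). The call of Chordc1 was lost under 8 of 16 alternatives, as given above. The median of the 15 was 0.44, and 12 of them also stand in a list above. Among those that did not pass were Dnajb1, Bag3 and Ubb (426 and 412 FPKM). Dnajb1 and Bag3 were not called higher in any alternative either, while Fkbp4, Hspa4l and Hspe1 were among the targets that rose. The part of HSF1 in these values was not tested. Bag3 was called lower under all 3 other scalings and Ubb under 2 of them. The related factor gene Hsf2 fell from 10.1 ± 0.297 to 8.60 ± 0.709 FPKM (limma adjusted p = 0.0135), and Hsbp1, which encodes a small HSF1-binding protein, did not pass (70.6 and 72.9 FPKM). RefSeq promoter windows were matched for 70 of the listed partner genes. An exact run of 3 GAA units stood before 3 of them, Hspd1, Hspe1 and Dnajb6, and before 0.514% of the 27025 symbols in the promoter table. Hspd1 and Hspe1 are transcribed in opposite directions from overlapping windows, and the run before them is the same stretch of bases, counted once for each gene. Dnajb6 did not pass the test (57.1 and 55.0 FPKM).

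The genes whose change over the 6 libraries came nearest to that of Cryab, by Euclidean distance of log2(FPKM + 1) centred on the Biotin-negative mean, were Cavin2, Cxcl10 and the predicted gene Gm773 (distances 0.200, 0.228 and 0.251). Cavin2, which encodes a coat protein of caveolae, went from 0.449 ± 0.126 to 7.96 ± 0.116 FPKM, and the chemokine gene Cxcl10 from 51.0 ± 2.81 to 342 ± 4.34 FPKM. Nearest to Hspa1b were Secisbp2 (distance 0.0482, 16.4 ± 0.994 to 8.94 ± 0.653 FPKM), 2700081O15Rik (0.0778) and Ankrd13b (0.0993). With 2 groups of 3 libraries such likeness is mainly a like difference between the groups.

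Facts of the whole series that stand beside these results are few. The FPKM values summed to between 337771 and 356681 per library, reads per library are not part of the file, and the depth is unknown. All libraries carry 1 batch label, so the comparison lies within that label. Pearson correlations of log2(FPKM + 1) across genes were 0.998 to 0.999 within and 0.977 to 0.978 between groups, and mitochondrial genes took 3.60 to 3.92% of the FPKM in Biotin-negative and 3.75 to 3.88% in Biotin-positive libraries. In these bulk samples a lower level may come from fewer cells of a type or from less RNA per cell, which cannot be told apart. The fibroblast markers Col1a1, Col1a2, Fn1 and Vim were expressed in both groups, while Dcn, Lum and Thy1 were near 0 in both groups. Of 8 tested fibroblast markers 6 fell and 2 rose, and the 14 listed summed to 3430 to 3677 and 2028 to 2115 FPKM. That sum rests mainly on Fn1, which fell from 2017 to 172 FPKM, and Vim, which rose from 658 to 1418 FPKM. The 25 epithelial markers summed to 2.71 to 3.09 and 47.3 to 49.5 FPKM. Krt7 (0.236 to 24.7 FPKM) and Krt8 (0.0362 to 20.8 FPKM) rose and had passed the filter only through the Biotin-positive libraries, so that nothing but a rise could be called for them. The other 23 were under 1 FPKM in every library with sums of 2.34 to 2.84 and 2.29 to 2.85 FPKM, and the defining markers Epcam and Cdh1 were at or near 0. Leukocyte markers summed to 9.16 to 11.0 and 8.87 to 10.3 FPKM, with Cd3e and Adgre1 at 0. Of these markers 2 were tested. Lyz2 was called higher (1.36 to 2.42 FPKM) and Cd68 lower (8.59 to 7.13 FPKM). The call of Cd68 was lost under 6 of 16 alternatives. The 6 endothelial markers were each under 1 FPKM in every library. Of 11 tested immediate early genes, which also answer to cell handling, 7 rose and 4 fell. Over all tested genes 37.8% were called higher and 36.1% lower. Fosb (0.393 to 2.24 FPKM) had passed the filter only through the Biotin-positive libraries, so nothing but a rise could be called for it. The fall of Btg2 was lost without Biotin-negative replicate 3 and without Biotin-positive replicate 1 or 2. Ier3 rose from 30.0 ± 0.563 to 89.8 ± 2.34 FPKM and Egr1 fell from 41.4 ± 0.356 to 13.3 ± 0.567 FPKM. The part of the keratin rise, of the fall of fibroblast markers and of cell handling in the heat shock values was not tested.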

How the data were processed

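RNA of 3 Biotin-negative and 3 Biotin-positive L929 libraries was sequenced on an Illumina NovaSeq, per the labels. The deposited values are FPKM, with 1 column per library matched to the samples by title. Per the submitters' processing notes the tools included cutadapt 1.9.1, HISAT2 2.2.1 and HTSeq 0.6.1, with the build GRCm39. How FPKM was computed, over which denominator, and whether strand was used is not given in the sources used here. The gene coordinates in the file have both ends equal to GENCODE vM21 on GRCm38 for 21616 of 21816 shared genes, so coordinates are given here as GRCm38.

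FPKM is not a count, and reads per library could not be recovered, so no interval that needs depth is given. Values were taken as log2(FPKM + 1), kept where at least 3 libraries had 1 FPKM, and compared with limma 3.58.1 in R 4.3.3 (trend, two-sided, Benjamini-Hochberg over 11029 genes). The procedure was tested on simulated data. Libraries of equal number were not paired, because no label ties them. Near-identical matches were sought with blastn 2.17.0 between GENCODE vM21 transcripts (at least 98% identity over 100 bases), and promoter windows came from RefSeq on GRCm38.p6.

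The 10 genes and the gene lists were chosen with earlier results of these data known. All 10 genes are named. Of each list up to 3 passing genes with the largest change in size are named, with those that did not pass or went against the majority where they were 5 or fewer, and others are named for their role. A listed gene is left out of the text and not reported here. The alternatives were pseudocounts of 0.1 and 0.5, no filter, a minimum of 5 FPKM, 3 scalings, other variance priors, a replicate block, leaving out each library, a log2 threshold of 1 and the sum of Hspa1a and Hspa1b.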

Additional observations from a re-analysis of the deposited data

How the results depend on the processing

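The counts of heat shock genes called, 7 higher and 2 lower, were the same under the pseudocounts, scalings, variance priors and the omission of each library in turn. Without a filter on low values 3 were lower, Hspa1a included. Among genes of at least 5 FPKM 6 were higher and 1 lower, since Hspb1 and Hspa1b were no longer tested, and with a log2 difference of at least 1 there were 4 higher and 0 lower. Over all tested genes that threshold left 583 higher and 376 lower. The 143 values of the 9 tested genes under these alternatives, a minimum log2 difference aside, all kept their direction and their side of the threshold, and Hspa1a was tested only without a filter. The nearest to the threshold was Hsf1, whose log2 difference ranged from -0.26 to -0.14, with a limma adjusted p of up to 0.0445 without Biotin-positive replicate 3. Replicate numbers are shared between the groups, but deviations of same-numbered libraries from their group means correlated at 0.0371, 0.012 and 0.0143, and Biotin-negative library 2 correlated best with another number. With the replicate block 7 heat shock genes were higher and 2 lower, and over all genes 4113 and 3927 against 4168 and 3985. Because depth is unknown, values near 0, such as those of Hspb1 and Hspa1a, have no counting error attached.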
